A study of Mus musculus with 4 samples.

Results

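The genes described here are 10 interferon-inducible GTPase genes: Gbp2, Gbp3, Gbp4, Gbp5, Gbp6 and Gbp7 of the guanylate-binding protein (GBP) family, and Irgm1, Irgm2, Igtp and Iigp1 of the immunity-related GTPase (IRG) family. They were chosen by gene symbol, and all 10 were found among the 50600 genes of the deposited tables. RNA levels come from 4 mouse Th17 libraries; Th17 cells are CD4 T helper cells that secrete interleukin 17. The cells were primary cells of strain C57BL/6NJ, with age unknown and sex not collected, and they were made by a linked CD4 T cell differentiation protocol whose cytokines and agents the labels do not name. All 4 libraries form 1 group, replicates 1 to 4, with no treated, untreated or interferon-stimulated arm. Each header names 72 hr as the time. The labels give 4 biosamples under 1 donor identifier, so p-values measure only the spread between these samples, which may be technical.

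GBPs and IRGs are large GTPases that cells make in response to interferon-gamma and, less strongly, type I interferon. They collect on the membranes of vacuoles that hold intracellular bacteria and parasites, and they damage those membranes or mark them for destruction. Interferon-gamma acts through its receptor and the kinases JAK1 and JAK2. Its target genes carry DNA elements called GAS and ISRE, and the factor IRF1 binds the ISRE. Within the IRG family, Irgm1, Irgm2 and Igtp encode the regulatory (GMS) proteins, which sit on the cell's own membranes and hold the effector (GKS) proteins, among them the product of Iigp1, in the inactive state.

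Promoter sequence is shown because these elements are the route by which interferon reaches the genes. The RefSeq promoter table (build GRCm38.p6, 250 bases before to 50 after each annotated start) held 7 of the 10 genes; Gbp4, Gbp6 and Iigp1 had no entry. The ISRE core was searched on both strands as GAAA, any 2 bases and GAAA again, and the GAS element as TTC, any 3 bases and GAA, a pattern that is its own reverse complement. All 7 genes had an ISRE core, against 3.44% of the 32851 promoter windows in the table and 3.72% of 9322 genes of the table with a mean of at least 1 TPM in these cells. A GAS match was present in 4 of the 7 (Gbp5, Gbp7, Igtp and Irgm2), against 8.3% of windows. A match describes letters in a window and is not evidence of binding. The 80 bases around the first ISRE core of each gene follow, 5′ to 3′ on the gene's strand, with ISRE cores in capitals; where cores overlap, the capitals cover both.
Gbp2 (chr3:142620569-142620648, + strand): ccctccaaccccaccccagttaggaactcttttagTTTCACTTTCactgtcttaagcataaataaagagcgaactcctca
Gbp3 (chr3:142559964-142560043, + strand): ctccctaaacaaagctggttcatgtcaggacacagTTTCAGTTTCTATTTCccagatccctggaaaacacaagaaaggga
Gbp5 (chr3:142496734-142496813, + strand): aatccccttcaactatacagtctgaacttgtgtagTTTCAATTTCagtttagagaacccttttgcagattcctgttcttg
Gbp7 (chr3:142530248-142530327, + strand): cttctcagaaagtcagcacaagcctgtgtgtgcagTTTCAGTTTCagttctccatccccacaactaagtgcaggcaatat
Irgm1 (chr11:48871406-48871485, − strand): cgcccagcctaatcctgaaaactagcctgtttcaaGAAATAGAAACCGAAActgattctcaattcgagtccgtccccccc
Irgm2 (chr11:58214878-58214957, + strand): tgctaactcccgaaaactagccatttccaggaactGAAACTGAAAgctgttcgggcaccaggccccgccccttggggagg
Igtp (chr11:58199487-58199566, + strand): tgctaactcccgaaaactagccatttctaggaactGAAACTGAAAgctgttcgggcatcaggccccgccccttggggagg

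The core lay on the minus strand of the gene in the 4 GBP promoters (read above as a repeat of TTTC) and on the plus strand in the 3 IRG promoters. Its first base was at −59 from the RefSeq start in Gbp2, −53 in Gbp7, −64 in Irgm2 and −34 in Igtp, and at −165 in Gbp5. Gbp3 and Irgm1 each carried a pair of overlapping cores, beginning at −45 and −39 in Gbp3 and at −30 and −24 in Irgm1. The Igtp and Irgm2 windows were identical at 78 of 80 bases, and the GAS match ended at −37 in Igtp and at −67 in Irgm2, upstream of the ISRE core. No annotated transcript held the bases after the RefSeq start of Irgm2, whereas for the other 6 genes at least 1 did. Igtp and Irgm1 shared 23 of 80 bases, and Gbp3 and Gbp7 shared 33 of 80.

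**Figure D1:**
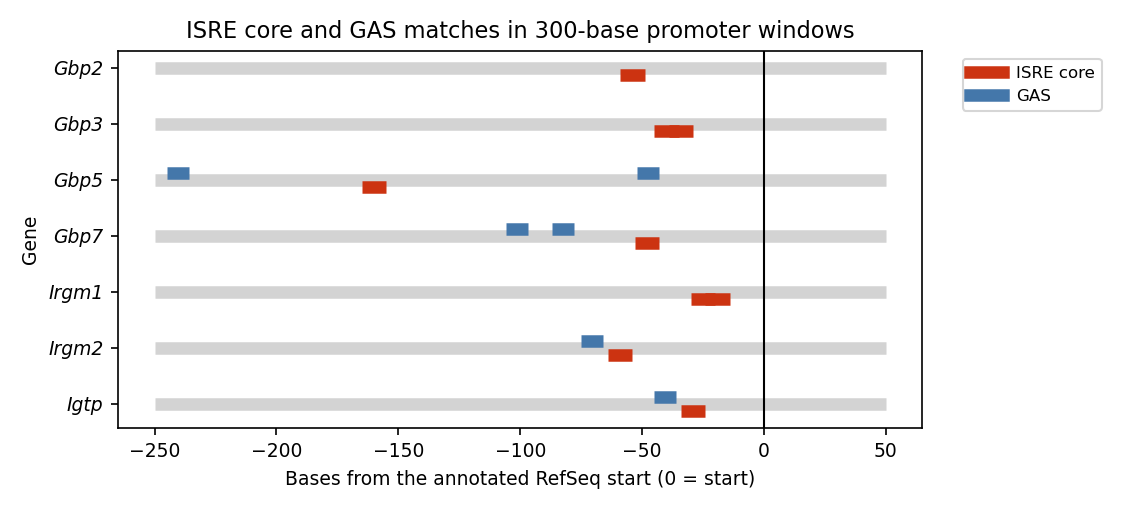
Matches to the ISRE core (red) and the GAS element (blue) in the 300-base promoter windows of the 7 genes in the table, by distance in bases from the annotated RefSeq start (0). An ISRE core lies upstream of the start in each of the 7, within 64 bases of it in all but Gbp5, where it begins at −165.

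Igtp and Gbp2 were by far the most abundant of the 10 genes. Levels are in TPM, a transcript measure that corrects counts for gene length and library size, as mean ± SD over the 4 libraries. Of the 10 genes 8 lay above 1 TPM, 1 below it (Gbp6) and 1 had neither call (Iigp1), by an edgeR quasi-likelihood test with Benjamini-Hochberg adjustment at 0.05. Across all 17337 genes tested 70.6% lay above and 16.4% below, so the members' share above 1 TPM was near the background. The median log2 level of the 10 genes was 3.56, beside 3.41 over all genes tested.

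Among the regulatory IRG genes, Igtp (ENSMUSG00000078853.8, chromosome 11, bases 58199556 to 58207591 on mm10), which encodes IRGM3 of the endoplasmic reticulum, had 131, 151, 115 and 125 TPM in replicates 1 to 4. Replicate 2 was the highest and no library was below 115 TPM. Its mean of 130 ± 15.2 TPM (n = 4) placed it above 92.7% of the 21764 protein-coding genes. Irgm1 (ENSMUSG00000046879.7, chromosome 11, bases 48861968 to 48871683), whose product acts at the Golgi, lysosomes and mitochondria, had 15.7, 14.9, 15.6 and 16.9 TPM. Irgm2 (ENSMUSG00000069874.7, chromosome 11, bases 58199618 to 58222782), whose product sits at the Golgi, had 13.1, 13.4, 12.8 and 13.1 TPM and was the steadiest member, with an SD of 0.03 on the log2(TPM + 0.1) scale, or 0.05 as log2 CPM with TMM scaling. Igtp thus stood at 131, 151, 115 and 125 TPM where Irgm2 stood between 12.8 and 13.4 TPM. The near identity of their promoters was counted over the 80 bases shown above, and matching bases continue past both ends of them. Over 270 bases aligned on the ISRE core without gaps, 184 were identical (68.1%). A comparison without gaps loses register at an inserted or missing base, so this share can understate the likeness. The Irgm2 promoter window begins at base 58214727, inside the counted gene, which starts at base 58199618. The Gbp5 window too begins inside its counted gene, at base 142496684 where the gene starts at base 142493978. On the minus strand, the Irgm1 window (bases 48871371 to 48871670) also lies within its counted gene, which ends at base 48871683. The annotated exons of Igtp and Irgm2 share 162 bases on the same strand, 8.01% of Igtp and 4.39% of Irgm2, and the headers show no option to count reads that fall in more than 1 gene.

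Iigp1 (ENSMUSG00000054072.11, chromosome 18), which encodes the effector IRGA6, was low. It had 47, 27, 30 and 57 counts, or 1.52, 0.756, 0.915 and 1.63 TPM. Replicates 1 and 4 lay above 1 TPM and replicates 2 and 3 below it. The log2 level was 0.27 ± 0.23 (SE) with no call (edgeR, adjusted p = 0.296). It lay above 1 TPM without replicate 2 (log2 level 0.44, edgeR adjusted p = 0.0437). The 3 regulatory genes together summed to 160, 179, 144 and 155 TPM.

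**Figure D2:**
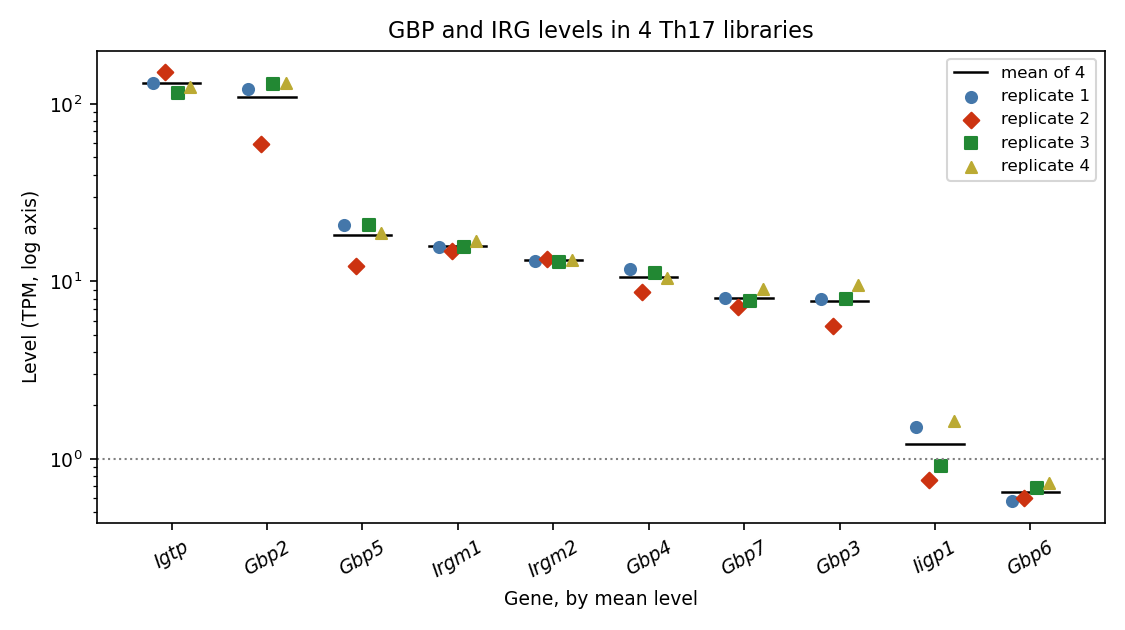
Level of each of the 10 genes in TPM (log axis), with a symbol for each of the 4 libraries and a line at their mean; the dotted line marks 1 TPM. Igtp and Gbp2 stand near 100 TPM or above it except for Gbp2 in replicate 2 (59.6 TPM), 6 genes lie between 5.62 and 20.9 TPM, and Iigp1 and Gbp6 lie near 1 TPM or below.

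Among the GBP genes, Gbp2 (ENSMUSG00000028270.12, chromosome 3, bases 142620602 to 142638008), which encodes a prenylated, membrane-binding GBP, had 121, 59.6, 129 and 131 TPM. Replicate 2 lay far below the other 3 libraries, which stood at 127 ± 5.36 TPM (n = 3). Gbp5 (ENSMUSG00000105504.4, chromosome 3, bases 142493978 to 142522344), a prenylated GBP linked to inflammasome activation, had 20.9, 12.3, 20.9 and 18.8 TPM, again lowest in replicate 2. Gbp7 (ENSMUSG00000040253.15, chromosome 3, bases 142530342 to 142550149) had 8.04, 7.19, 7.80 and 9.02 TPM. Gbp3 (ENSMUSG00000028268.14, chromosome 3, bases 142560026 to 142573209) had 8.01, 5.62, 7.96 and 9.49 TPM. Both were lowest in replicate 2 and highest in replicate 4. Gbp4 (ENSMUSG00000079363.7, chromosome 5, bases 105115767 to 105139586) had 11.8, 8.76, 11.1 and 10.5 TPM.

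Gbp6 (ENSMUSG00000104713.4, chromosome 5, bases 105270702 to 105293698) had 34, 41, 43 and 49 counts, or 0.576, 0.601, 0.687 and 0.735 TPM. Every library lay below 1 TPM (log2 level −0.62 ± 0.16, edgeR quasi-likelihood test, adjusted p = 0.00894). Of its annotated exon bases 29.0% are also covered by another gene of the same strand, Gm43302. With length counted over unshared bases, an alternative chosen after seeing the data, the call was lost (log2 level −0.15, adjusted p = 0.405). GBP genes are close paralogs and the headers show no option to count reads that map to several places, so the low values of Gbp6 and of its neighbours are uncertain.

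In order of mean level the genes ran Igtp, Gbp2, Gbp5, Irgm1, Irgm2, Gbp4, Gbp7, Gbp3, Iigp1 and Gbp6. The ranges over libraries overlapped for Igtp and Gbp2, for Gbp5 and Irgm1, for Gbp4 and Gbp7 and for Gbp7 and Gbp3. Within a library, Igtp exceeded Gbp2 in 2 of 4 libraries, Gbp7 exceeded Gbp3 in 2 of 4 and Gbp5 exceeded Irgm1 in 3 of 4, so the order of these pairs was not steady. Gbp4 exceeded Gbp7 in 4 of 4, although the ranges over different libraries overlapped. Gbp2 exceeded Gbp5 by 6.05 times in mean TPM and Gbp3 exceeded Iigp1 by 6.44 times, with no overlap. Igtp and Gbp2 together made up 211 to 256 of the 274 to 336 TPM that the 10 genes summed to in a library.

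The members fall into clusters with other genes of their families. The chromosome 3 cluster of 5 GBP genes spans 144.0 kb and the chromosome 5 cluster of 6 spans 332.3 kb. A list of 17 further GBP and IRG genes was examined, of which 14 had enough counts to be tested. Of these 7 lay above 1 TPM and 6 below it, beside 70.6% and 16.4% of all genes tested. On chromosome 5, Gbp9 and Gbp8 had 7.40 ± 0.594 and 5.88 ± 0.307 TPM (n = 4), while Gbp10 and Gbp11 had 0.184 ± 0.175 and 0.277 ± 0.153 TPM. On chromosome 3, Gbp2b had 1.01 ± 0.649 TPM and no call. On chromosome 11, the effector IRG genes Tgtp2 and Tgtp1, which are near-identical copies, had 3.21 ± 0.362 and 2.47 ± 0.548 TPM. Because the headers show no option to count reads that map to several places, the values of these copies are uncertain too. The IRG-like genes 9930111J21Rik2 and 9930111J21Rik1 had 4.39 ± 0.484 and 2.92 ± 0.328 TPM. Of the 4 chromosome 18 genes, Gm4951, F830016B08Rik and Gm4841 had 0 to 2 counts in a library, beside 27 to 57 for Iigp1. The IRG-like gene Irgq on chromosome 7 had 41.2 ± 4.40 TPM, the highest of the 17. Ifi47, a further IRG gene found as the neighbour of the Irgm1 cluster, had 29.7 ± 3.08 TPM.

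The design has no contrast between groups, so 1 replicate at a time was set against the remaining 3. In replicate 2 Gbp2, Gbp5 and Gbp3 were lower and Igtp was higher. The log2 change was −1.03 ± 0.06 in Gbp2 (SE; fold 0.490), −0.65 ± 0.09 in Gbp5 and −0.54 ± 0.16 in Gbp3, while Igtp was higher at 0.35 ± 0.06 (fold 1.27). The Benjamini-Hochberg adjusted p-values of the edgeR quasi-likelihood test were 7.53e-11, 2.4e-05, 0.0205 and 0.000307. In Gbp2, Gbp5 and Gbp3 replicate 2 lay below all 3 other libraries, and in Igtp above all 3. Such a test compares 1 library with 3, not conditions, and takes the spread of the 3 for the lone one too.

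Of the 10 genes 3 were thus lower, against 10.9% of all genes tested, and 1 was higher, against 11.7%. These shares of all genes are also the background for the counts of called genes in replicate 2 in every list below. The median log2 change of the 10 was −0.21, beside −0.01 over all genes, and 8 of 10 lay below 0, beside 50.9% of all genes. The call of Gbp3 was lost with DESeq2 (−0.54, adjusted p = 0.0955) and without replicate 4 (−0.45, edgeR adjusted p = 0.0531). Gbp4, at −0.28 ± 0.10, had no call (edgeR adjusted p = 0.055) but was called lower without replicate 3 or 4 (−0.29 and −0.33) and with a filter of 100 counts (−0.29). Gbp7 stood at −0.14 ± 0.12, Gbp6 at −0.09 ± 0.39, Irgm1 at −0.05 ± 0.09, Irgm2 at 0.10 ± 0.11 and Iigp1 at −0.78 ± 0.45, all with no call. The standard errors of Gbp6 and Iigp1 leave changes of the size seen in Gbp3 not detectable at their depth.

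The families diverged in summed level. The 6 GBP genes summed to 94.1 TPM in replicate 2 and to 170 to 179 TPM in the others, whereas the 4 IRG genes summed to 180 TPM in replicate 2 and to 144 to 161 TPM in the others. The ratio of Gbp2 to Igtp was 0.395 in replicate 2 and 0.922, 1.12 and 1.05 in replicates 1, 3 and 4. These sums follow Gbp2 and Igtp, their largest terms.

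By position, the 3 members lower in replicate 2 lie in the chromosome 3 cluster. A further gene there, Gbp2b, had 5 counts in replicate 2 against 25, 40 and 52 in replicates 1, 3 and 4 and was lower at −2.98 ± 0.65 (edgeR adjusted p = 0.00181). Gbp7, between Gbp5 and Gbp3, was not called. The genes that flank this cluster, Pdlim5 and Kyat3, had changes of −0.16 ± 0.07 and 0.22 ± 0.10 with no call. On chromosome 5 Gbp8 and Gbp9 stood at −0.05 ± 0.16 and −0.05 ± 0.13, also with no call. Beside that cluster Abcg3 was higher at 0.62 ± 0.16 and Lrrc8b lower at −0.38 ± 0.09 (edgeR adjusted p = 0.00896 and 0.00402). Beside the Irgm1 cluster on chromosome 11 Trim7 was higher at 0.73 ± 0.13 and Ifi47 had no call at −0.20 ± 0.11, and beside Igtp and Irgm2 the genes Mrpl22 and 4930438A08Rik had no call. Whether the clusters differ from each other was not tested. Of the 14 further family genes tested, Gbp2b and Irgq (−0.23 ± 0.06, edgeR adjusted p = 0.012) were lower and 0 were higher; 3 had an unadjusted p under 0.05.

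**Figure D3:**
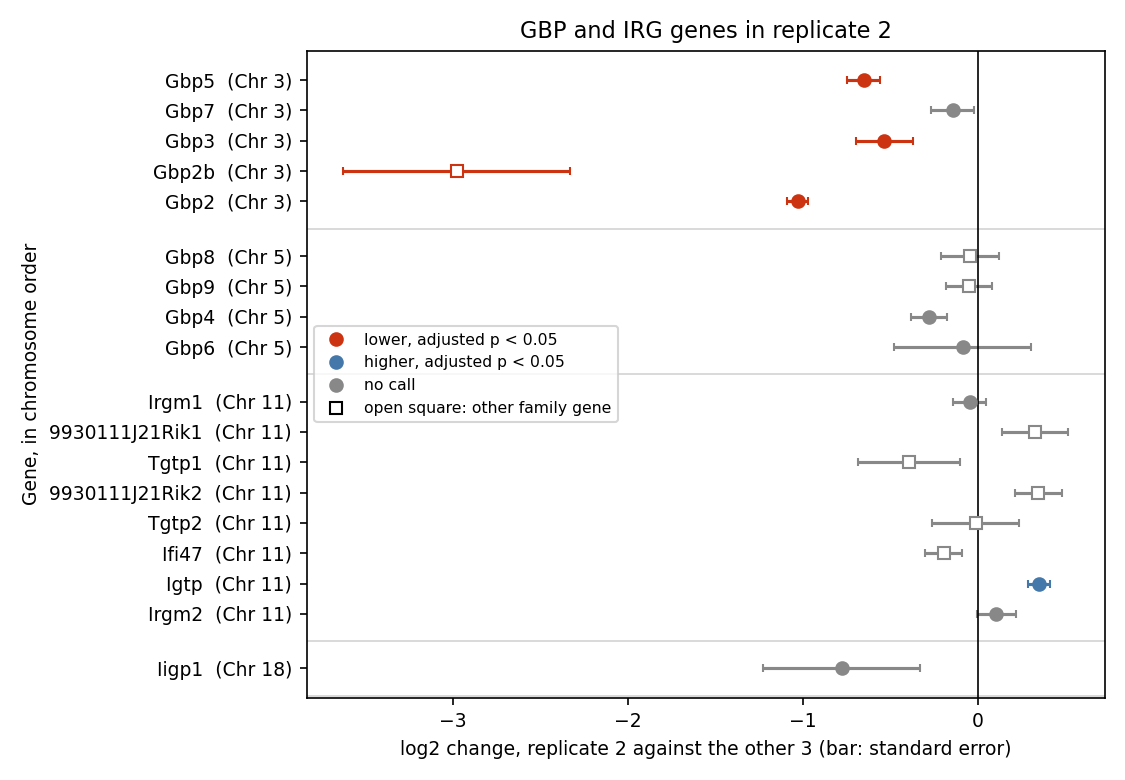
The log2 change in replicate 2 against the other 3 libraries, with its standard error, for the 10 genes (filled circles) and family genes of at least 1 TPM in or beside their clusters (open squares) in chromosome order. Gbp5, Gbp3, Gbp2b and Gbp2 on chromosome 3 were called lower, Igtp on chromosome 11 was called higher at 0.35, and the chromosome 5 genes had no call.

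Replicates 1, 3 and 4 showed no such departure. None of the 10 genes was called in any of the 3 comparisons by edgeR or by DESeq2, and 0 had an unadjusted p under 0.05 with edgeR; over all genes edgeR called 0% in each. The largest changes were in Iigp1, at 0.46 ± 0.53, −0.51 ± 0.56 and 0.59 ± 0.50 in replicates 1, 3 and 4. With replicate 2 among the other libraries their spread is wide. When it was left out, 68, 108 and 9 genes were called in replicates 1, 3 and 4, and still 0 of the 10.

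Gbp2 had the largest spread of the 10 genes over the libraries (SD 0.55 on the log2(TPM + 0.1) scale). The 5 genes of at least 5 TPM whose centred log2 profile over the 4 libraries lay closest to its own were Spin4, Ptprj, Impa2, Aldoc and Sec24d, with root mean square differences of 0.01 to 0.04. Of the other members Gbp5 lay closest, at 0.19, and Igtp farthest, at 0.61.

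Genes that carry the interferon-gamma signal were expressed, while the cytokine gene itself was low. All 12 genes of the ligand, receptor and signal list lay above 1 TPM, or 11 of 12 without replicate 3 and without replicate 4. Of all genes tested 70.6% lay above 1 TPM. The receptor genes Ifngr1 and Ifngr2 had 26.1 ± 1.96 and 34.7 ± 2.27 TPM (n = 4), and the kinase genes Jak1 and Jak2 179 ± 5.87 and 407 ± 72.4 TPM. Irf1 had 25.3 ± 1.74 TPM, and Socs1, the feedback inhibitor of JAK kinases, 119 ± 24.2 TPM. Ifng had 26, 9, 40 and 50 counts in replicates 1 to 4, or 2.03, 0.607, 2.94 and 3.45 TPM. Of its annotated exon bases 74.1% are shared with no other gene of the same strand. In replicate 2, 4 of the 12 were lower and 1 higher (median −0.12). Irf8, a factor that binds ISRE-like elements with partners, was lower at −2.69 ± 0.10, Ifng at −2.13 ± 0.57 and Jak2 at −0.51 ± 0.04, and Socs1 was higher at 0.55 ± 0.11. Irf1 stood at 0.05 ± 0.10 with no call.

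Other targets of interferon-gamma also moved both ways in replicate 2, with 6 of 16 tested higher and 4 lower (median 0.01). The tryptophan-degrading enzyme gene Ido1 was lower at −2.12 ± 0.31, the chemokine gene Cxcl10 at −1.77 ± 0.36, the nitric oxide synthase gene Nos2 at −1.54 ± 0.11 and the tRNA synthetase gene Wars at −0.21 ± 0.05. The largest rise was in Gch1, the first enzyme of tetrahydrobiopterin synthesis, at 1.02 ± 0.11, and Cd274, which encodes the inhibitory ligand PD-L1, was higher at 0.48 ± 0.05. Of the immunoproteasome and peptide loading genes Psmb9, Tap1, Psmb8 and Tapbp were higher, at 0.52 ± 0.08, 0.44 ± 0.05, 0.34 ± 0.05 and 0.19 ± 0.05. Psmb10 and Tap2, of the same kinds, stood at 0.08 ± 0.08 and 0.05 ± 0.05 with no call. The most abundant of the list were B2m, the light chain of class I MHC, at 1868 ± 59.9 TPM, and Psmb8 and Tap2 at 263 ± 27.1 and 145 ± 2.90 TPM.

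Of 15 type I interferon targets 5 were lower and 3 higher in replicate 2. Their median was −1.02, or −0.52 with the 2 genes at 0 counts in replicate 2 (Mx1 and Ifi44) set at the bound that 3 counts allow. Isg15, a ubiquitin-like protein gene, was lower at −1.50 ± 0.34, and Mx1, an antiviral GTPase related to dynamins, had 0 counts against 10, 9 and 5. Oas1a, an antiviral 2′-5′ oligoadenylate synthetase gene, had 2366 counts in replicate 2 against 91, 77 and 73, and was higher at 4.82 ± 0.12. Usp18, an inhibitor of the type I interferon receptor, was higher at 3.80 ± 0.23, and Bst2, a tethering factor at 231 ± 17.1 TPM, at 0.27 ± 0.06.

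**Figure D4:**
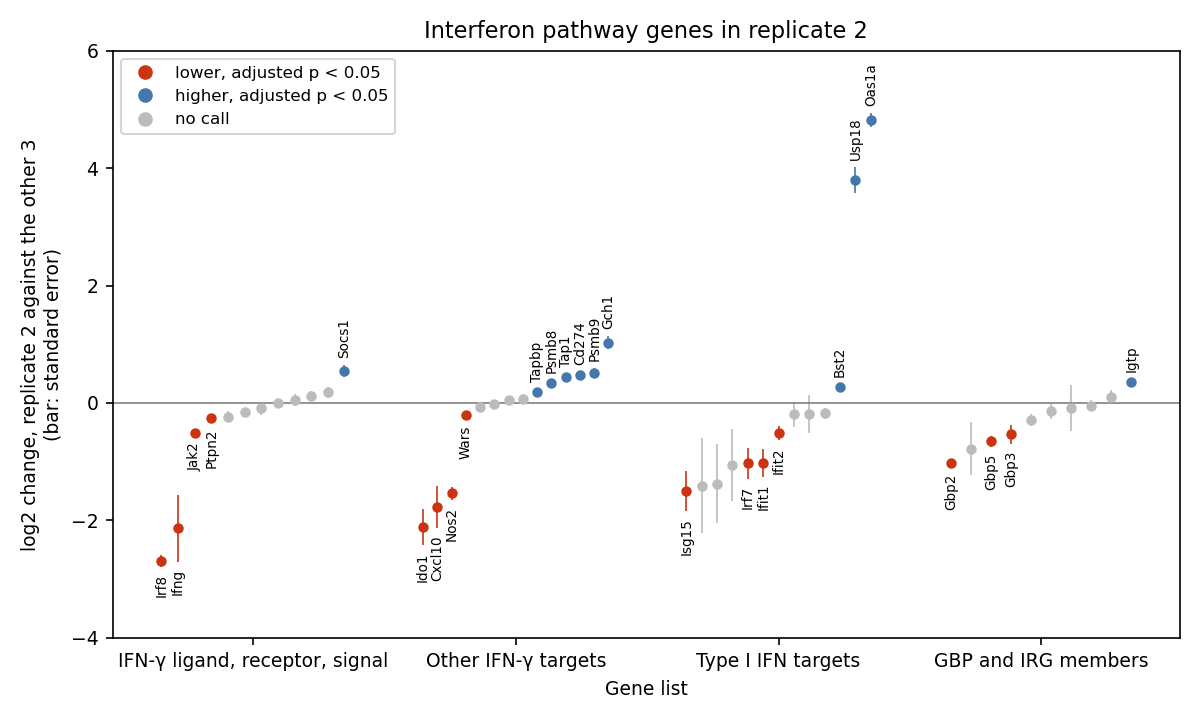
The log2 change in replicate 2 against the other 3 libraries, with its standard error, for each tested gene of 3 interferon lists and for the 10 GBP and IRG genes, called genes named. Genes with 0 counts in replicate 2 (Cxcl9, Ciita, Mx1 and Ifi44) are not drawn; every list holds genes called in both directions, from Irf8 at −2.69 to Oas1a at 4.82.

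Partners of these GTPases were also present, where 70.6% of all genes tested lay above 1 TPM. All 15 genes of the list for ubiquitin and for the ATG8 conjugation system, which loads GTPases onto vacuoles, lay above 1 TPM, led by Gabarap, Sqstm1 and Gabarapl1 at 244 ± 19.7, 148 ± 9.11 and 135 ± 6.63 TPM. In replicate 2, 3 of them were higher, Gabarap at 0.25, Map1lc3b at 0.23 and Atg3 at 0.18, and Traf6 was lower at −0.21 (median −0.04). DESeq2 called 1 higher. Of 8 genes for the caspases and inflammasomes that act downstream of GBPs, 6 lay above 1 TPM. Among them were Pycard, Casp1 and Aim2 at 74.9 ± 13.5, 59.2 ± 8.84 and 53.5 ± 1.00 TPM. In the same list Nlrp3 had 0.589 ± 0.265 TPM with no call. Il1b lay below 1 TPM at 0.223 ± 0.151 TPM, with 0 to 7 counts in a library. In replicate 2 Pycard was higher at 0.53 ± 0.06, and Casp4 and Casp1 were lower at −0.46 ± 0.11 and −0.35 ± 0.10 (median −0.13). Without replicate 4, 2 of the 8 were called higher. All 5 prenylation enzyme genes lay above 1 TPM, led by Fnta, Rce1 and Icmt at 91.0 ± 2.97, 82.3 ± 5.66 and 65.5 ± 1.34 TPM, and 0 were called in replicate 2 by edgeR, with 1 at an unadjusted p under 0.05.

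Markers of cell identity were read in the same libraries. The 8 Th17 and T cell markers summed to 2081 TPM in replicate 2 and to 6113 to 6838 TPM in the others, with 4 lower (Il17a, Il17f, Ccr6 and Il23r), 1 higher (Cd3g), and Cd4 at 0.01 ± 0.05 with no call. The 7 CD8 T and NK cell markers, 3 of them tested and 2 called lower, summed to 62.8 TPM in replicate 2 and to 99.9 to 115 TPM in the others. Of them Nkg7, Cd8b1 and Gzma lay above 1 TPM, at 53.0 ± 16.9, 42.0 ± 7.49 and 3.07 ± 0.661 TPM, with Nkg7 and Cd8b1 lower in replicate 2 at −1.03 ± 0.13 and −0.47 ± 0.11. Ncr1 was at 0 counts in each library and Cd8a at 0 to 3. The 12 myeloid and dendritic cell markers, 7 tested and 1 called lower, summed to 23.6 TPM in replicate 2 and 20.4 to 22.3 TPM in the others, with Lyz2, C1qa and C1qb at 0 counts in all 4 libraries. Of the same list Cd68, Adgre1 and Cd14 lay above 1 TPM, at 9.46 ± 1.88, 7.96 ± 1.495 and 3.86 ± 1.15 TPM, and Adgre1 was lower in replicate 2 at −0.54 ± 0.15. The 5 B cell markers, 4 tested and 0 called by edgeR with 1 at an unadjusted p under 0.05, summed to 2.16 TPM in replicate 2 and 1.75 to 2.11 TPM in the others, led by Cd79b, Cd79a and Pax5 at 1.23 ± 0.410, 0.339 ± 0.292 and 0.288 ± 0.120 TPM. The 7 stromal and endothelial markers, 4 tested and 2 called higher, summed to 31.2 and 21.3 to 23.8 TPM, with Col3a1 and Cdh5 at 0 counts. Pecam1 and Dcn lay above 1 TPM, at 18.7 ± 1.84 and 5.32 ± 2.69 TPM, and were the 2 called higher, at 0.29 ± 0.09 and 1.30 ± 0.13, while Col1a1 had 0.835 ± 0.125 TPM. The part of these differences in the GBP and IRG values was not tested. In RNA from many cells, fewer cells that express a gene and less RNA per cell cannot be told apart. Total counts ranged from 33123029 to 37746767, and 3 counts correspond to 0.0795 to 0.0906 CPM.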

How the data were processed

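RNA was sequenced from 4 libraries of mouse Th17 cells. The authors used featureCounts 1.4.6-p4 on paired reads (both ends mapped, strand option 2) with GENCODE M13, per the file headers; the build is mm10 per the labels. Each library has a deposited table of raw counts with a Length column in bases, the other deposited value used. The labels call the assay total RNA-seq but link a poly(A)+ protocol.

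Symbols came from GENCODE vM21 (50376 of 50600 identifiers matched). TPM is count over Length, scaled per library. Genes with at least 10 summed counts were tested with edgeR 4.0.16 (robust quasi-likelihood, TMM), for each replicate against the other 3 and, with length and library scale as offset, for the level against 1 TPM; the F statistic of the level came from fitted deviances. The SE of a log2 value was its absolute size over the square root of the edgeR F statistic. DESeq2 1.42.0 was an alternative. P-values were Benjamini-Hochberg adjusted over all genes at 0.05. Both fits were run on simulated counts with the same dispersion for all genes and far fewer changed genes than were called in replicate 2. For the level only the estimate was checked there, not the calls. No 2 libraries agreed within sampling noise (chi-square per degree of freedom 4.44 to 49.4). Members and lists were chosen with earlier results of these data known. The text names all members, family genes of at least 1 TPM, from each list the 3 most abundant genes and the 3 largest calls in replicate 2, the neighbours of each cluster and the 5 profiles closest to Gbp2; other list genes it names were chosen after their values were seen. Promoters are from RefSeq. 1 gene of the interferon-gamma signal list is counted but not reported here by name.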

Additional observations from a re-analysis of the deposited data

Results flagged for a closer look

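In 16 of 75 genes examined, 1 of the 4 libraries stood apart from the other 3, with a gap to its nearest neighbour, as a share of the whole range in TPM, above Dixon's critical value for 4 samples; chance flags about 1 in 20 genes. In all 16 the library was replicate 2. That rate is no yardstick for this count, because many of the 75 genes were examined for their large called change in replicate 2, among them Irf8, Oas1a, Usp18, Il17f, Ccr6, Adgre1 and Dcn, or for a profile like that of Gbp2. Among the 10 GTPase genes only Gbp2 did so, at 59.6 TPM. Among interferon genes replicate 2 was low in Irf8 (3.95 TPM) and Jak2 (299 TPM) and high in Oas1a (109.6 TPM) and Usp18 (29.96 TPM). Among markers it was low in Il17f (578 TPM), Ccr6 (51.5 TPM) and Adgre1 (5.73 TPM) and high in Dcn (9.35 TPM). Of the genes beside the clusters, Lrrc8b was low at 11.8 TPM and Trim7 high at 5.30 TPM. The 5 genes picked for a profile like that of Gbp2 share its low library by that choice, with Spin4 at 7.66, Ptprj at 18.2, Impa2 at 76.8, Aldoc at 10.3 and Sec24d at 8.09 TPM.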

How the results depend on the processing

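The number of the 10 genes above 1 TPM was 8 to 9 and the number changed in replicate 2 was 3 to 5 over the alternatives run (other normalization, tool, count filters, each replicate left out), with 0 changed in replicates 1, 3 and 4 throughout; no call on a member changed sign. Over all genes, DESeq2 called 2, 15 and 3 genes in replicates 1, 3 and 4, and edgeR with no filter on counts called 17 in replicate 3, where the edgeR count as reported was 0. With 1 other library left out the counts were 0 to 68, 0 to 108 and 0 to 9; the highest of each came without replicate 2. In replicate 2, with 3907 as reported, they were 3959 to 4341, and DESeq2 called 2843. With length over unshared exon bases, chosen after seeing the data, 0 of the 10 lay below 1 TPM. Among the members' changes, the call of Gbp3 was lost and a call of Gbp4 was gained in some alternatives, both in replicate 2. Replicates 1, 3 and 4 had no call on a member to lose. No paired analysis was possible because the libraries form 1 group. Counts of 27 to 57 limit Iigp1 and of 34 to 49 Gbp6.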
